A study of Mus musculus with 24 samples.

Results

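The expression of 10 genes, of the 21159 genes that had a named probe on the array, was followed through irradiation of mouse thymocytes: *Cdkn1a*, *Btg2*, *Ccng1*, *Plk2*, *Mdm2*, *Trp53inp1*, *Phlda3*, *Zmat3*, *Sesn2* and *Trp53* itself. They were taken as the genes of cell cycle arrest and feedback around the transcription factor TRP53, and their probes were those whose transcript accession belongs to 1 of these genes, which gave 12 of the 55681 probes. *Cdkn1a* and *Trp53inp1* have 2 probes each and the others 1, and where there were 2 the brighter probe in the thymocyte channel was used unless stated otherwise.

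The series compares thymocytes of C57BL/6J mice, 4 to 5 weeks old per the methods, in 4 treatments and both sexes, with 3 individual mice in each of the 8 groups. Control mice were not irradiated, low dose mice received 0.075 Gy of X-rays, high dose mice received 1.75 Gy of γ-rays, and mice of the radio-adaptive response (RAR) group received 0.075 Gy of X-rays and, 6 h later, 1.75 Gy of γ-rays. Thymocytes were passed through a cell strainer without a sort, so the RNA is that of a mixture, in which fewer cells of a type and less RNA per cell cannot be told apart. The methods describe irradiated mice and the labels irradiated thymocytes, and the time from irradiation to collection is not given in the sources used here, for any treatment. No allele differs between the groups.

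TRP53 is held at a low level by the ubiquitin ligase MDM2, is stabilized after DNA damage, and then binds pairs of short half-sites near its target genes. Among these targets are inhibitors of the cell cycle, of which CDKN1A (p21), an inhibitor of cyclin-dependent kinases, is the classic one, and genes whose products feed back on TRP53 or on growth signalling, with *Mdm2* as the classic example. Thymocytes are among the cells of the body most sensitive to radiation, and their death after irradiation depends on *Trp53*.

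The sequences in front of 3 of these genes are shown because the genes in question rose in the irradiated groups and their windows hold the letters that TRP53 binds. The windows are the 250 bases before a transcript start in RefSeq (build GRCm38.p6), available for 8 of the 10 genes in 9 windows. The search used the TRP53 consensus half-site, 10 bases long, which reads the same on both strands, and pairs of half-sites with at most 1 mismatch and at most 13 bases between them. Capitals mark the half-sites, single or in pairs.
Cdkn1a, chr17:29090729-29090978, plus strand: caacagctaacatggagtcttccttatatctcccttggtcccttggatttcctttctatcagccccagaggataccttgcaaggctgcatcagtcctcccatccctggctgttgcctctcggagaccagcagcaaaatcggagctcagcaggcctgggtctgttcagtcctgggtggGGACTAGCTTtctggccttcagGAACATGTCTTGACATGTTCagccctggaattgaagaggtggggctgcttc
Ccng1, chr11:40755287-40755536, minus strand: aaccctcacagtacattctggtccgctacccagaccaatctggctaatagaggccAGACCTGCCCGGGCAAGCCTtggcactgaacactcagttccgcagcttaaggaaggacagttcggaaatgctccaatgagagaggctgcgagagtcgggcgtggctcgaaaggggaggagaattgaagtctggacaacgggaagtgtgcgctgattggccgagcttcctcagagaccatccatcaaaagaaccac
Mdm2, chr10:117710759-117711008, minus strand: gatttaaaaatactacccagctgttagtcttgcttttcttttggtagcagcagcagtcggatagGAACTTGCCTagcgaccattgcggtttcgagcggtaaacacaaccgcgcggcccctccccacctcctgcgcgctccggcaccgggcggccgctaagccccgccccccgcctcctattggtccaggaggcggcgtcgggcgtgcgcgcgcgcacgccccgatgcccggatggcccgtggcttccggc
The *Cdkn1a* window, which lies before the more upstream of its 2 starts, held 2 overlapping pairs. In 1 of them the joined sequence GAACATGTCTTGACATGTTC began 51 bases before the start and matched 19 of 20 positions, and in the other 2 full half-sites, the first of them 73 bases before the start, stood 12 bases apart. The window at the other *Cdkn1a* start held none. The pair of *Ccng1*, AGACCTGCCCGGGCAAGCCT, matched 19 of 20 positions and began 195 bases before the start. *Mdm2* held a single half-site 186 bases before its start, and the *Trp53* window held a single one 75 bases before its start. No half-site was found in the windows of *Btg2*, *Phlda3*, *Sesn2* and *Plk2*. Of all 32851 windows of this length, 7.13% held a half-site and 0.505% held a pair. A match describes the letters of the window and not a bound site.

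Unless stated otherwise, every value below is a log2 ratio taken within 1 array. It sets the Cy5 signal of the thymocytes against the Cy3 signal of a common mouse reference RNA. A negative level means less signal than in the reference and says nothing about 1 probe against another. Differences are between group means on this log2 scale, and a gene is said to have risen or fallen where it changed by 1.5-fold or more with a Benjamini-Hochberg adjusted p under 0.05 in the limma fit of all 55681 probes. The number of arrays limits the precision: a group has 3, the median SD within a group over the 10 genes was 0.103, and an exact two-sided permutation test of 3 arrays against 3 cannot give a p below 0.1. In Cy5 the brighter probes passed the scanner software's test of being well above background on all 24 arrays, except that of *Plk2*, which passed it on 18. The third female RAR array stood apart from the others, with 34.7% of probes well above background in Cy5 against up to 71.8% on the array with the highest share, and it decided results of *Trp53inp1*, which are given without it too.

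All 11 markers of double-positive thymocytes, among them *Cd4*, *Cd8a*, *Rag1* and *Dntt*, were well above background on all 24 arrays. The same held for all 12 myeloid markers, so this test alone does not tell the cell types apart. Marker signals were also summed in Cy5 alone, without the reference, in units of each array's 75th percentile of Cy5. For the double-positive markers the sum was 860 to 991 in female controls and 480 to 629 in female RAR mice. In males it was 826 to 924 in controls and 439 to 485 in RAR mice. Markers of myeloid cells, 12 genes that were also well above background on all 24 arrays, had a sum of 129 to 210 in female controls, 256 to 343 at the low dose, 219 to 293 at the high dose and 553 to 602 in RAR. In males the myeloid sum was 132 to 179 in controls, 264 to 432 at the low dose, 311 to 430 at the high dose and 536 to 639 in RAR. The sum of the double-positive markers and their log2 ratios, which are different measures, did not show the same. Such a sum leaves out the reference and weighs bright genes most. By log2 ratio, the median change of the 11 markers in RAR was 0.06 in females and 0.29 in males. Of them, 2 rose and 3 fell in females and 4 rose and 1 fell in males. Beside this, 20.5% and 24.6% of all probes were past the threshold used below. The median change of the myeloid markers was 1.51 and 1.86. These sums moved with the treatments that follow, and their part in the values of the 10 genes was not tested.

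Most of the 10 genes rose after every treatment, in both sexes. Against controls of the same sex, 8 rose at the high dose in females and 8 in males, where 7.89% and 10.6% of all probes were past the threshold in either direction. At the low dose, 7 rose in females, where 8.77% of probes were past the threshold, and 7 rose and *Trp53* fell in males, where it was 6.65%. In RAR mice 7 rose and *Trp53* fell in females and likewise in males, beside 20.5% and 24.6% of all probes. The median change of the 10 genes was 1.65 and 1.83 at the high dose in females and males, 1.57 and 1.45 at the low dose, and 1.78 and 1.94 in RAR, while the medians over all named genes were between -0.09 and -0.04. For 7 genes, *Cdkn1a*, *Ccng1*, *Plk2*, *Mdm2*, *Phlda3*, *Zmat3* and *Sesn2*, the values of all 18 irradiated arrays lay above those of all 6 control arrays. The share of all probes with such a separation was not counted. Where a change of over 1.5 log2 units was asked for, 5 genes were left in each comparison with controls except RAR in males, where there were 6.

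**Figure D1:**
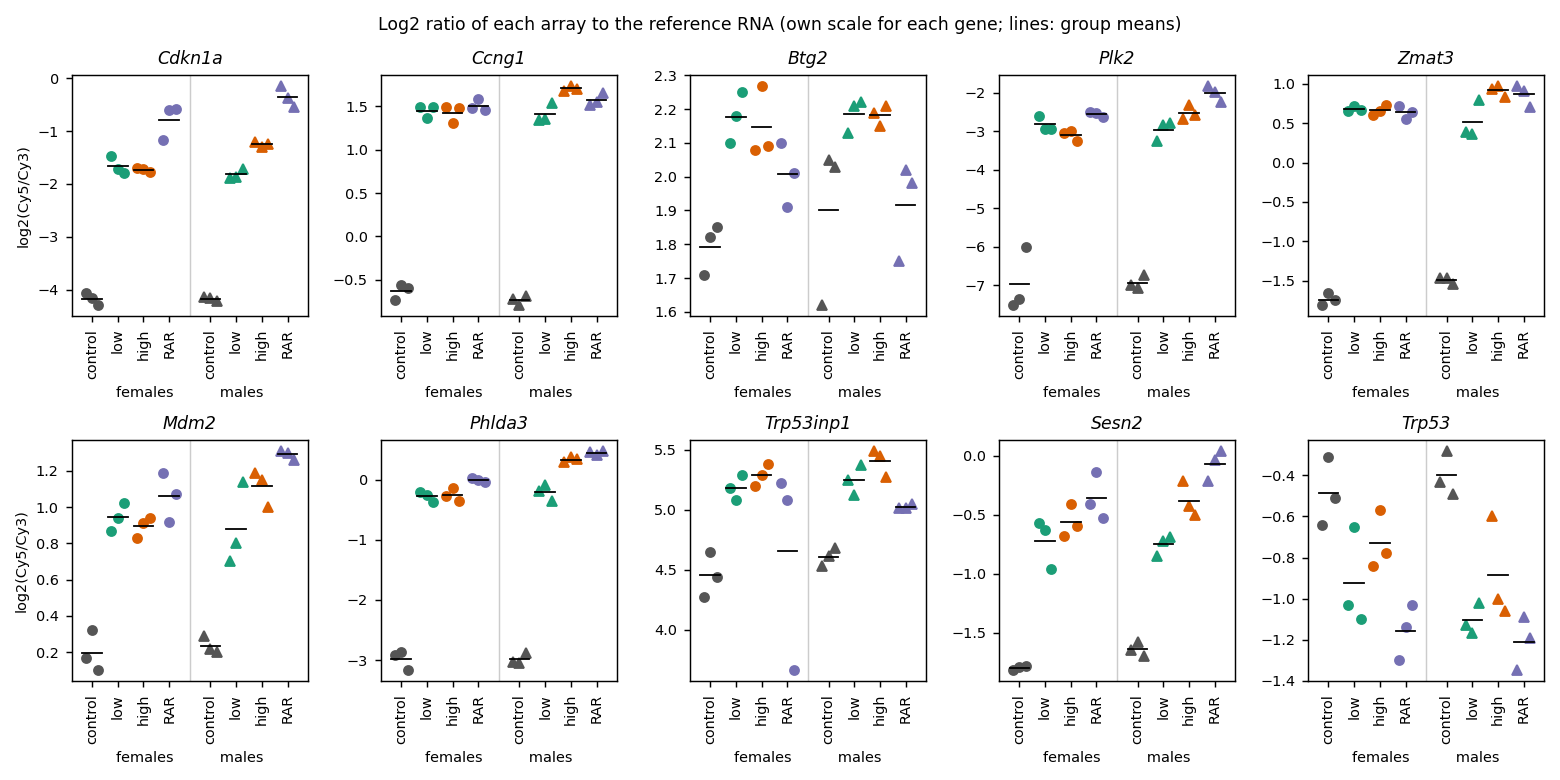
Each panel plots 1 gene as log2(Cy5/Cy3) on its own vertical scale, with a point for each of the 24 arrays (circles for females, triangles for males) and a line at the mean of each group of 3. The irradiated arrays of *Cdkn1a*, from -1.88 to -0.14, lie above its controls, from -4.29 to -4.07, and those of *Trp53*, from -1.35 to -0.57, lie mostly below its controls, from -0.64 to -0.28.

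Among the genes of arrest, *Cdkn1a* showed the clearest step between the treatments. In females its log2 ratio was -4.07, -4.16 and -4.29 in controls, -1.47, -1.71 and -1.80 at the low dose, -1.69, -1.72 and -1.78 at the high dose, and -1.17, -0.61 and -0.59 in RAR. In males it was -4.13, -4.15 and -4.22 in controls, -1.88, -1.87 and -1.71 at the low dose, -1.20, -1.31 and -1.25 at the high dose, and -0.14, -0.37 and -0.55 in RAR. The controls of both sexes were low and close together, single doses were intermediate, and RAR was highest, with no overlap between RAR and any other group of the same sex. The rise over control was 5.42-fold at the high dose in females (95% CI 4.43 to 6.63, adjusted p = 3.43e-09 by limma) and 7.54-fold in males (6.16 to 9.22). At the low dose it was 5.69-fold in females (4.65 to 6.97) and 5.08-fold in males (4.15 to 6.22). In RAR it was 10.4-fold in females (3.38 log2 units, 3.09 to 3.67) and 14-fold in males (3.81 log2 units, 3.52 to 4.10). The second *Cdkn1a* probe was dimmer, well above background on 0 of 3 female and 1 of 3 male control arrays. It rose by at least 1.66-fold at the high dose, 2.25-fold at the low dose and 3.1-fold in RAR in females, and its measured differences in males were 1.66, 1.59 and 2.44 log2 units in the same order.

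*Ccng1*, which encodes cyclin G1, a partner of protein phosphatase 2A in the regulation of MDM2, reached much the same level after each treatment. Its values in females were -0.73, -0.56 and -0.59 in controls, 1.49, 1.37 and 1.49 at the low dose, 1.49, 1.31 and 1.48 at the high dose, and 1.48, 1.58 and 1.46 in RAR. In males they were -0.72, -0.79 and -0.68 in controls, 1.34, 1.35 and 1.54 at the low dose, 1.68, 1.74 and 1.70 at the high dose, and 1.51, 1.55 and 1.65 in RAR. Controls and irradiated arrays were far apart, and the irradiated groups of females overlapped with each other. The rises were 2.05, 2.07 and 2.13 in females and 2.44, 2.14 and 2.30 in males at the high dose, at the low dose and in RAR, with adjusted p-values from limma of at most 8.45e-11.

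*Plk2*, a polo-like kinase, was measured by a probe that was not well above background on any of the 6 control arrays and was so on all 18 irradiated ones. In females its values were -7.52, -7.36 and -6.01 in controls, -2.61, -2.93 and -2.93 at the low dose, -3.04, -2.99 and -3.25 at the high dose, and -2.51, -2.52 and -2.63 in RAR. The male values were -7.00, -7.08 and -6.74 in controls, -3.25, -2.85 and -2.78 at the low dose, -2.68, -2.32 and -2.58 at the high dose, and -1.81, -1.99 and -2.23 in RAR. The control values carry only a bound, so the rise is given as a lower limit, set against the weakest signal that was well above background on the control arrays, from single channels that are open to dye bias without swapped dyes. It was at least 4.61-fold at the high dose, 5.56-fold at the low dose and 6.46-fold in RAR in females, and at least 11.2-fold, 8.52-fold and 16.6-fold in males. The adjusted p-values of the limma fit, which used the measured values, were at most 5.43e-08. With normexp background correction and loess normalization the rises were past the threshold but smaller than these limits, at 1.02, 1.27 and 1.60 log2 units in females and 1.68, 1.43 and 2.27 in males in the same order, so the size of the *Plk2* rise depended on the processing. That correction used an offset of 50, which is larger than the processed Cy5 signals of *Plk2* in controls, 9.41 to 24.9. The part of the offset in the smaller rises was not tested.

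*Btg2*, an antiproliferative gene whose product recruits a deadenylase to mRNA, moved little. Its values were 1.71, 1.82 and 1.85 in female controls, 2.10, 2.18 and 2.25 at the low dose, 2.08, 2.27 and 2.09 at the high dose, and 2.10, 1.91 and 2.01 in RAR. In males they were 1.62, 2.05 and 2.03 in controls, 2.13, 2.21 and 2.22 at the low dose, 2.19, 2.15 and 2.21 at the high dose, and 1.75, 2.02 and 1.98 in RAR. The single doses lay above the controls of the same sex in both sexes, and male RAR overlapped with its controls. No change reached 1.5-fold: the differences from control were 0.35 and 0.28 at the high dose, 0.39 and 0.29 at the low dose, and 0.22 (95% CI -0.02 to 0.45) and 0.02 (-0.21 to 0.26) in RAR, in females and males. The sign of the RAR difference turned with the scaling, to -0.30 in females and -0.42 in males with the Cy5 channel alone and to -0.33 in males with quantile normalization.

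Among the genes of feedback, *Mdm2* rose modestly. Its values were 0.17, 0.32 and 0.10 in female controls, 0.87, 0.94 and 1.02 at the low dose, 0.83, 0.91 and 0.94 at the high dose, and 1.19, 0.92 and 1.07 in RAR. In males they were 0.29, 0.22 and 0.20 in controls, 0.70, 0.80 and 1.14 at the low dose, 1.19, 1.15 and 1.00 at the high dose, and 1.31, 1.30 and 1.26 in RAR. All irradiated arrays lay above the controls, and the irradiated groups overlapped with one another except RAR in males, which lay above the others. The rise was 1.62-fold in females (95% CI 1.39 to 1.90) and 1.84-fold in males (1.57 to 2.15) at the high dose, 1.68-fold (1.44 to 1.96) and 1.56-fold (1.34 to 1.83) at the low dose, and 1.82-fold (1.55 to 2.12) and 2.07-fold (1.77 to 2.42) in RAR. The adjusted p-values from limma were between 5.59e-07 and 0.000641. In the Cy5 channel alone it was under 1.5-fold at both single doses and RAR in females (0.48, 0.54 and 0.53 log2 units) and at the low dose in males (0.56), where it also fell short without the third low dose male (0.52).

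*Phlda3*, whose product competes with the kinase AKT for membrane lipids, rose to a narrow range. In females its values were -2.91, -2.87 and -3.17 in controls, -0.20, -0.26 and -0.37 at the low dose, -0.27, -0.14 and -0.35 at the high dose, and 0.02, -0.01 and -0.04 in RAR. The values in males were -3.03, -3.05 and -2.88 in controls, -0.19, -0.09 and -0.35 at the low dose, 0.29, 0.37 and 0.34 at the high dose, and 0.46, 0.41 and 0.48 in RAR. The 3 irradiated groups of males stood in separate bands, low dose below high dose below RAR, while in females the 2 single doses overlapped. The rise was 6.63-fold, 6.53-fold and 7.85-fold in females and 10-fold, 6.88-fold and 10.9-fold in males at the high dose, at the low dose and in RAR.

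*Zmat3*, a zinc finger gene whose product binds RNA, also rose to a plateau. Its values were -1.81, -1.66 and -1.75 in female controls, 0.65, 0.72 and 0.67 at the low dose, 0.60, 0.66 and 0.73 at the high dose, and 0.72, 0.56 and 0.64 in RAR. In males they were -1.46, -1.46 and -1.54 in controls, 0.39, 0.37 and 0.80 at the low dose, 0.94, 0.98 and 0.83 at the high dose, and 0.98, 0.91 and 0.71 in RAR. The irradiated groups of females overlapped, all of them far above the controls. The rises were 5.31-fold, 5.35-fold and 5.20-fold in females and 5.30-fold, 4.02-fold and 5.10-fold in males at the high dose, at the low dose and in RAR.

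*Sesn2*, a sestrin that restrains mTORC1 signalling under stress, rose by about 1 log2 unit or more. Its values were -1.82, -1.79 and -1.78 in female controls, -0.57, -0.63 and -0.96 at the low dose, -0.68, -0.41 and -0.60 at the high dose, and -0.41, -0.14 and -0.53 in RAR. The male values were -1.65, -1.58 and -1.70 in controls, -0.85, -0.72 and -0.69 at the low dose, -0.22, -0.43 and -0.50 at the high dose, and -0.22, -0.04 and 0.04 in RAR. Male RAR lay at or above the highest value of the high dose and above all low dose arrays. The rise was 2.36-fold and 2.39-fold at the high dose, 2.11-fold and 1.85-fold at the low dose, and 2.71-fold and 2.97-fold in RAR, in females and males, with adjusted p-values from limma of at most 0.000107.

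*Trp53inp1*, which encodes a nuclear protein that promotes the phosphorylation of TRP53, rose in part. Its brighter probe was at 4.27, 4.65 and 4.44 in female controls, 5.18, 5.08 and 5.29 at the low dose, 5.20, 5.29 and 5.38 at the high dose, and 5.22, 5.08 and 3.66 in RAR. In males it was at 4.53, 4.61 and 4.68 in controls, 5.25, 5.12 and 5.37 at the low dose, 5.49, 5.45 and 5.27 at the high dose, and 5.01, 5.01 and 5.05 in RAR. The third female RAR array lay below the controls of its sex and the other 17 irradiated arrays lay above all controls. By this probe the rise at the high dose was 1.78-fold in females (95% CI 1.22 to 2.60, adjusted p = 0.0387 by limma) and 1.74-fold in males (1.19 to 2.53, adjusted p = 0.0410). At the low dose the differences were 0.73 and 0.64, with adjusted p-values of 0.0707 and 0.132 by limma, and in RAR 0.20 and 0.42, with 0.655 and 0.257.

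The result of *Trp53inp1* depended on the probe and on that array. Without the third female RAR array its RAR difference in females was 0.69 and past the threshold. The second probe, which had 3.58, 3.09 and 3.36 in female RAR, rose in all 6 comparisons with control, by 0.62, 0.66 and 0.62 in females and 0.72, 0.67 and 0.68 in males at the high dose, at the low dose and in RAR, with adjusted p-values from limma of 0.000839 to 0.00572. The call of the brighter probe at the high dose was lost with the slide as a block, at 0.45 in females (adjusted p = 0.637 by limma) and 0.72 in males (0.103), and when any 1 of 5 arrays (for females) or of 9 arrays (for males) was left out. It was also lost with the Cy5 channel alone and with the replicate number as a block in both sexes, and with quantile normalization in males. At the low dose the brighter probe was past the threshold in both sexes with normexp and loess and with values over 1 log2 unit away left out, as was the mean of both probes.

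*Trp53* itself, whose product is regulated mostly as a protein, had values of -0.64, -0.31 and -0.51 in female controls, -1.03, -0.65 and -1.1 at the low dose, -0.84, -0.57 and -0.78 at the high dose, and -1.30, -1.14 and -1.03 in RAR. In males the values were -0.43, -0.28 and -0.49 in controls, -1.13, -1.17 and -1.02 at the low dose, -0.60, -1.0 and -1.06 at the high dose, and -1.35, -1.09 and -1.19 in RAR. All irradiated males lay below all control males, and in females the second high dose array lay within the range of the controls. *Trp53* fell by 0.67 in female RAR (95% CI of the difference -0.97 to -0.37, adjusted p = 0.00144 by limma), by 0.81 in male RAR (-1.11 to -0.51, adjusted p = 0.000203) and by 0.71 at the low dose in males (-1.01 to -0.41, adjusted p = 0.00321). The differences were -0.24 and -0.49 at the high dose and -0.44 at the low dose in females, under 1.5-fold. With normexp background correction and loess normalization the same 3 falls were -0.33, -0.46 and -0.49, under 1.5-fold, and with quantile normalization the fall in male RAR was -0.58. The fall in female RAR was also under 1.5-fold without the second female control, at -0.58, and without the first high dose male the difference at the high dose in males was -0.63 and past the threshold.

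**Figure D2:**
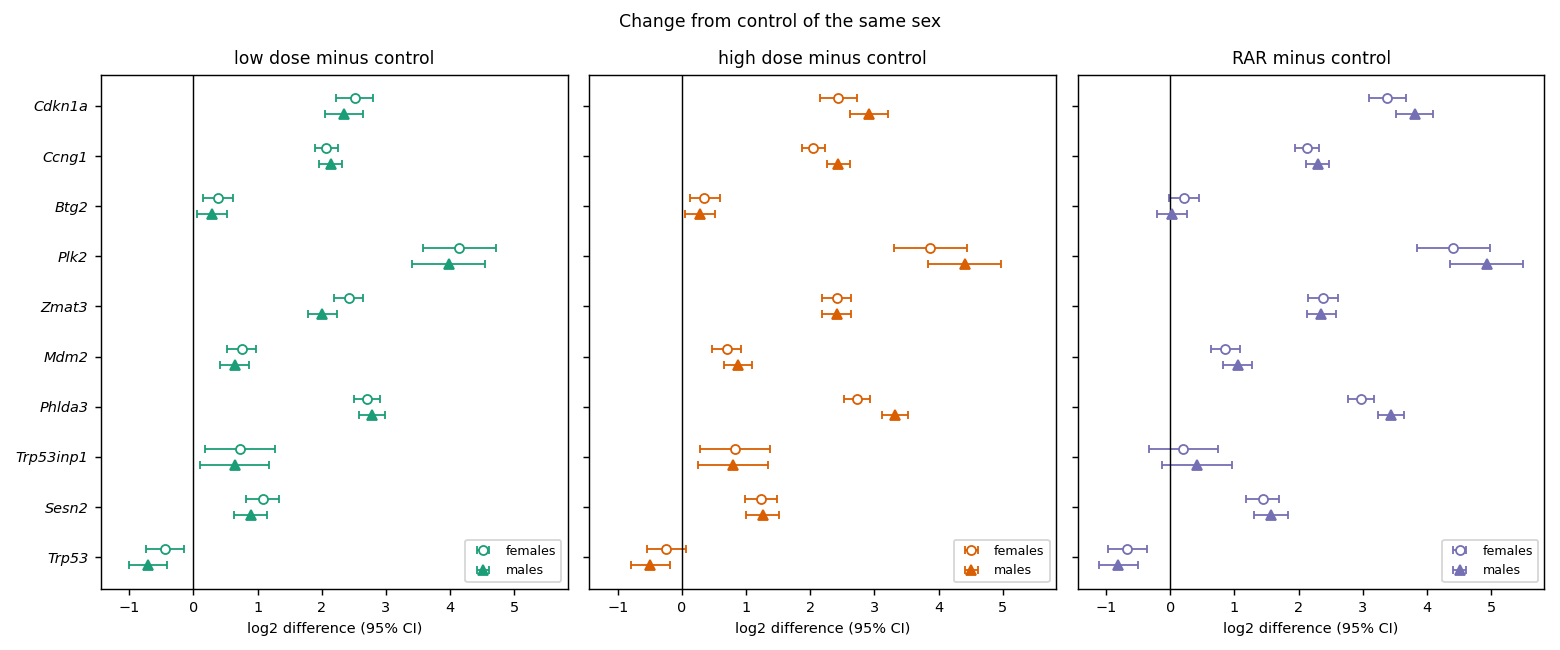
Points give the log2 difference of each gene from controls of the same sex at the low dose, at the high dose and in RAR (open circles for females, filled triangles for males), with bars for the 95% confidence interval from limma. *Btg2* lies near 0 and *Trp53* to the left of 0, and the *Plk2* values, 3.87 to 4.93, rest on controls that were not well above background.

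The single exposures, which differed in dose (0.075 Gy against 1.75 Gy) and in the kind of radiation, were not told apart by any of the 10 genes at the threshold of the limma fit. Between the high and the low dose, 0 of the 10 genes were past it in females and 0 in males, and over all probes it was 0% in females and 0.0018% in males. In females no gene had an unadjusted p under 0.05, the differences ran from -0.27 (*Plk2*) to 0.20 (*Trp53*), and the 95% intervals of all 10 genes ran from -0.84 to 0.65. For *Cdkn1a* the difference was -0.07 (95% CI -0.36 to 0.22), for *Ccng1* -0.02 (-0.21 to 0.16), for *Phlda3* 0.02 (-0.18 to 0.22) and for *Zmat3* -0.01 (-0.24 to 0.21).

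In males 6 genes had an unadjusted p under 0.05 by limma and all 6 were higher at the high dose. The share of all probes under that p is not given here, so the count has no background to be read against. *Cdkn1a* was higher by 0.57 (0.28 to 0.86, adjusted p = 0.372), *Phlda3* by 0.54 (0.34 to 0.75, adjusted p = 0.160), *Zmat3* by 0.40, *Sesn2* by 0.37, *Ccng1* by 0.30 and *Mdm2* by 0.23, with adjusted p-values from limma of up to 0.671 for the last 4. None of these passed the correction. The high dose arrays lay above all low dose arrays for *Cdkn1a*, *Ccng1*, *Phlda3*, *Zmat3*, *Sesn2* and *Plk2* in males, again without a share over all probes.

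Against the high dose alone, 1 gene of the 10, *Cdkn1a*, was past the threshold in RAR mice of both sexes. It was higher in RAR by 0.94 in females (1.92-fold, 95% CI 1.57 to 2.35, adjusted p = 0.000392 by limma) and by 0.90 in males (1.86-fold, 1.52 to 2.28, adjusted p = 0.000452), and no other of the 10 genes was past the threshold in either sex. Over all probes, 7.3% in females and 5.89% in males were past it, so a count of 1 in 10 is near the share over all probes. The second *Cdkn1a* probe was higher by 0.85 and 0.78, with adjusted p-values of 0.0578 and 0.0897 by limma. Without the first female RAR array, *Trp53inp1* was past the threshold too, lower in RAR; the third array, which was low, is 1 of the 2 left in that fit.

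The other 9 genes had smaller differences between RAR and the high dose. *Ccng1* differed by 0.08 in females (95% CI -0.10 to 0.26) and -0.14 in males (-0.32 to 0.04), and *Zmat3* by -0.03 (-0.25 to 0.20) and -0.05 (-0.28 to 0.17). *Mdm2* differed by 0.16 (-0.06 to 0.39) and 0.17 (-0.05 to 0.40), and *Plk2* by 0.54 (-0.03 to 1.11) and 0.52 (-0.05 to 1.09). For *Phlda3* the differences were 0.24 (0.04 to 0.45) and 0.12 (-0.09 to 0.32), for *Sesn2* 0.20 (-0.06 to 0.46) and 0.31 (0.05 to 0.57), and for *Btg2* -0.13 (-0.37 to 0.10) and -0.26 (-0.50 to -0.03). None of these reached an adjusted p under 0.05 in the limma fit. *Trp53inp1* had -0.64 in females (-1.18 to -0.09, adjusted p = 0.125 by limma), where the third RAR array was low, and -0.38 in males (-0.92 to 0.16). Without that array the difference in females was -0.14 (95% CI -0.39 to 0.11). *Trp53* was lower by 0.42 in females (difference -0.42, -0.73 to -0.12, adjusted p = 0.0625 by limma) and 0.32 in males (difference -0.32, -0.62 to -0.02, adjusted p = 0.180), short of the threshold.

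Against the low dose alone, 1 gene of the 10, *Cdkn1a*, was higher in RAR in females, beside 4.14% of all probes, and 4 were higher in males, beside 9.78%. *Cdkn1a* was higher by 0.87 in females (1.83-fold, 1.5 to 2.24) and by 1.47 in males (2.76-fold, 2.26 to 3.38, adjusted p = 1.38e-06 by limma). The others in males were *Plk2* (0.95, adjusted p = 0.0203), *Sesn2* (0.68, adjusted p = 0.000853) and *Phlda3* (0.66, adjusted p = 0.000130). The call of *Phlda3* was lost with the Cy5 channel alone, at 0.41, and that of *Plk2* with quantile normalization (adjusted p = 0.0562 by limma). With the slide as a block 2 of these were left, *Cdkn1a* at 1.55 and *Phlda3* at 0.61, while *Sesn2* and *Plk2* had adjusted p-values of 0.0620 and 0.124. Without the first low dose male, the first RAR male or the second RAR male, 3 were left, without *Plk2*.

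**Figure D3:**
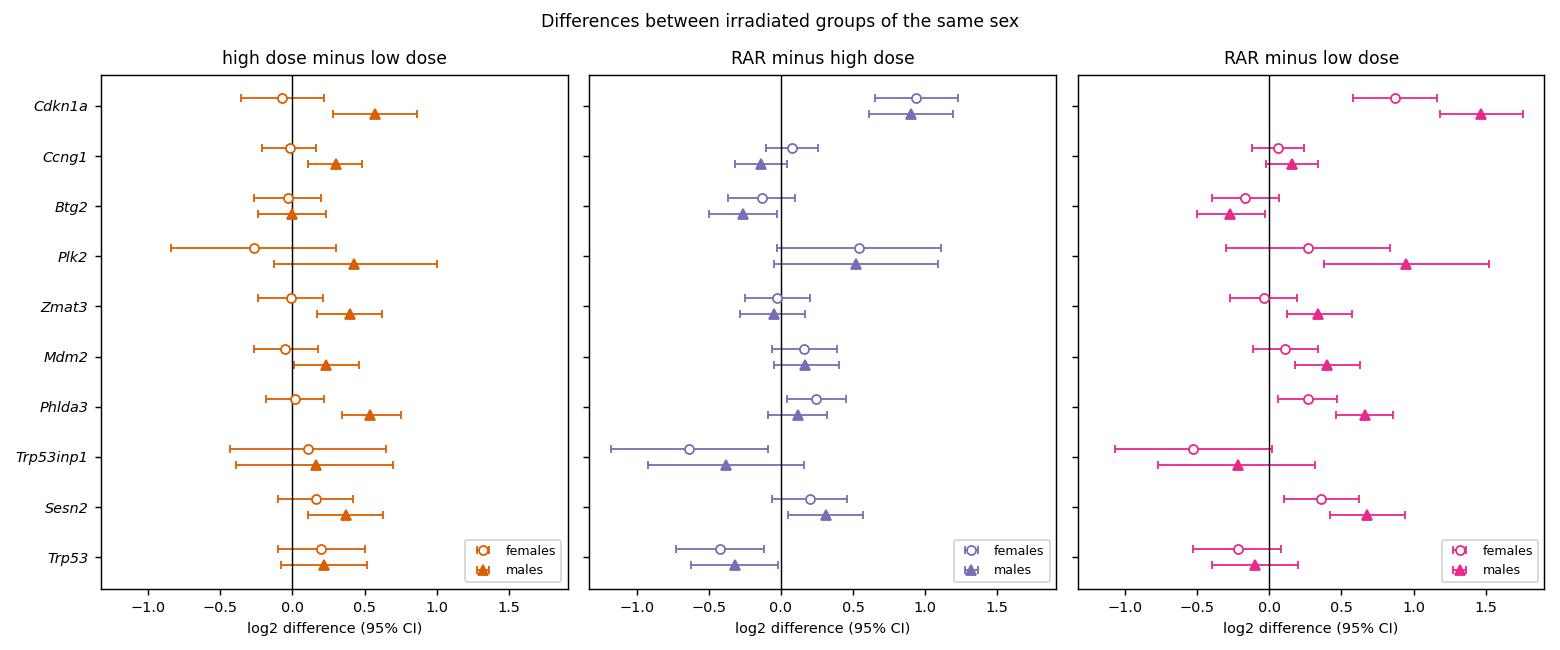
Points give log2 differences between irradiated groups of the same sex, high dose minus low dose, RAR minus high dose and RAR minus low dose (open circles for females, filled triangles for males), with bars for the 95% confidence interval from limma. The intervals of *Cdkn1a* lie to the right of 0 in both RAR panels, from 0.61 at the lowest against the high dose.

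The sexes were compared in RAR and by the interaction of sex and treatment. Between male and female RAR mice 0 of the 10 genes were past the threshold, beside 0.438% of all probes. At an unadjusted p under 0.05 by limma there were 5, for which no share of all probes is given here. *Phlda3* was higher in males by 0.46 (95% CI 0.26 to 0.67, adjusted p = 0.0388 by limma), which is under 1.5-fold, and *Cdkn1a* by 0.44 (0.14 to 0.73, adjusted p = 0.221). The adjusted p of *Phlda3* by limma was 0.126 without the third female RAR array and 0.06 with the slide as a block. Limma's F-test of the interaction had 0 of the 10 genes at an adjusted p under 0.05, beside 0.00359% of all probes. At an unadjusted p under 0.05 it had 4, again without a share of all probes to read them against. By this test across all probes with limma, these were *Phlda3* (unadjusted p = 0.000711, adjusted p = 0.554), *Cdkn1a* (unadjusted p = 0.00919, adjusted p = 0.692), *Ccng1* (unadjusted p = 0.0279, adjusted p = 0.744) and *Zmat3* (unadjusted p = 0.0363, adjusted p = 0.751). The two-way ANOVA of the methods, without moderation, also had 0 and 4. Both tests kept the value farthest from its group, and the count without it, which was higher, is given in the closing section. The means of male and female controls differed by -0.10 (*Ccng1*) to 0.25 (*Zmat3*), male minus female.

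The arrays lay on 3 slides, and the groups were spread over them unevenly: 1 slide held all female controls, and no high dose or RAR female lay on it, so that for these comparisons slide and treatment cannot be told apart without the other groups. Within a slide that held both groups, *Cdkn1a* rose over control by 2.37 at the low dose in females, by 2.26 and 2.39 at the low dose in males, by 2.85 at the high dose in males and by 3.99 in RAR in males, as differences with 1 to 3 arrays a side and no test. Its excess in RAR over the high dose was 0.84 in females, and 0.75 and 1.13 in males, within slides. *Mdm2* was 0.51 to 0.82 above control in the same comparisons with single doses, and 1.02 in male RAR. *Trp53* was below control within each of these slides, with differences of -0.74 to -0.60 at the single doses and -0.92 in male RAR.

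Other genes of the TRP53 pathway were taken from lists chosen for their known roles. Of 28 other TRP53 targets, 12 rose and 1 fell at the high dose in females, 15 rose and 2 fell in males, 12 rose and 1 fell at the low dose in females, 14 rose and 1 fell in males, and 12 rose and 3 fell and 15 rose and 4 fell in RAR. The background shares of these comparisons are those given above, and the median changes of the list were 0.46, 0.73, 0.40, 0.58, 0.38 and 0.68 in the same order. Among those that rose in all 6 comparisons with control, *Bbc3* and *Pmaip1*, which encode the BH3-only proteins PUMA and NOXA, were higher by 2.60 to 2.93 and 2.59 to 3.41, and *Bax*, an effector of mitochondrial apoptosis, by 1.81 to 2.44. *Aen*, an exonuclease gene, was higher by 1.81 to 2.50. *Dcxr*, *Ei24*, *Ercc5*, *Gtse1*, *Polk* and *Tnfrsf10b* also rose in all 6. *Siva1*, a proapoptotic gene, fell in all 6, by 0.80 to 1.25. *Gadd45a*, a DNA damage inducible gene, had differences of -0.21 to 0.20 and was not past the threshold in any.

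Among 16 genes that regulate TRP53, 1 rose at the high dose in females, 1 rose and 2 fell in males, 1 rose at the low dose in females, and 1 rose and 1 fell in males, beside 7.89%, 10.6%, 8.77% and 6.65% of all probes. *Mdm4*, the relative of MDM2 that inhibits TRP53, was the one that rose each time, by 0.66 to 1.00, and by 1.22 and 1.17 in RAR. *Atm*, the kinase that signals double-strand breaks, fell in males, by 0.85 at the high dose and 0.93 at the low dose. In RAR 2 rose and 3 fell in females and 4 rose and 4 fell in males, beside 20.5% and 24.6% of all probes, with *Trp53bp2*, *Trim28* and *Chek2* among those that fell in both sexes.

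Of 19 genes of the same families as the 10, between 1 and 5 rose and at most 3 fell in each comparison with control, where 6.65% to 10.6% of all probes were past the threshold at single doses and 20.5% and 24.6% in RAR. *Plk3*, a relative of *Plk2*, was higher by 0.33 to 0.74 at single doses and rose by 1.1 and 1.46 in RAR, and *Plk4* fell by 1.01 at the high dose in males and by 1.13 and 2.11 in RAR, where its probe was well above background on 2 of 3 female and 1 of 3 male arrays. *Cdkn1b* (p27) and *Cdkn1c* (p57), the relatives of *Cdkn1a*, had differences of -0.22 to 0.38 and -0.84 to -0.05, of which the fall of *Cdkn1c* in female RAR passed the threshold.

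The genes of cyclins, their kinases and the E2F factors, which act downstream of CDKN1A, fell more often than they rose. Of 24 such genes, 6 fell and 2 rose at the high dose in females, 7 fell and 0 rose in males, 3 fell and 1 rose at the low dose in females, 6 fell and 1 rose in males, 11 fell and 2 rose in female RAR and 12 fell and 2 rose in male RAR. In the same order 7.89%, 10.6%, 8.77%, 6.65%, 20.5% and 24.6% of all probes were past the threshold. *Ccne2*, counted as a fall at the high dose in females (-2.03), had a probe well above background on only 1 of the 24 arrays. *E2f1* fell in males and females at both single doses, by 1.03 to 1.15, *Ccne1* (cyclin E1) by 0.89 to 1.1 and *Pcna*, the sliding clamp of replication, by 1.14 to 1.36. In RAR *Cdk2* fell by 1.33 and 1.48 and *Cdk6* by 1.26 and 1.63. The *Cdk6* probe was well above background on 1 of 3 female and 2 of 3 male RAR arrays. Of the D-type cyclins, *Ccnd2* and *Ccnd1* rose in RAR, by 1.69 and 1.61 and by 0.86 and 1.07, while *Ccnd3* fell, by 0.84 and 0.83. Against the high dose alone, 5 fell and 2 rose in female RAR and 7 fell and 2 rose in male RAR, beside the shares given for *Cdkn1a*.

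**Figure D4:**
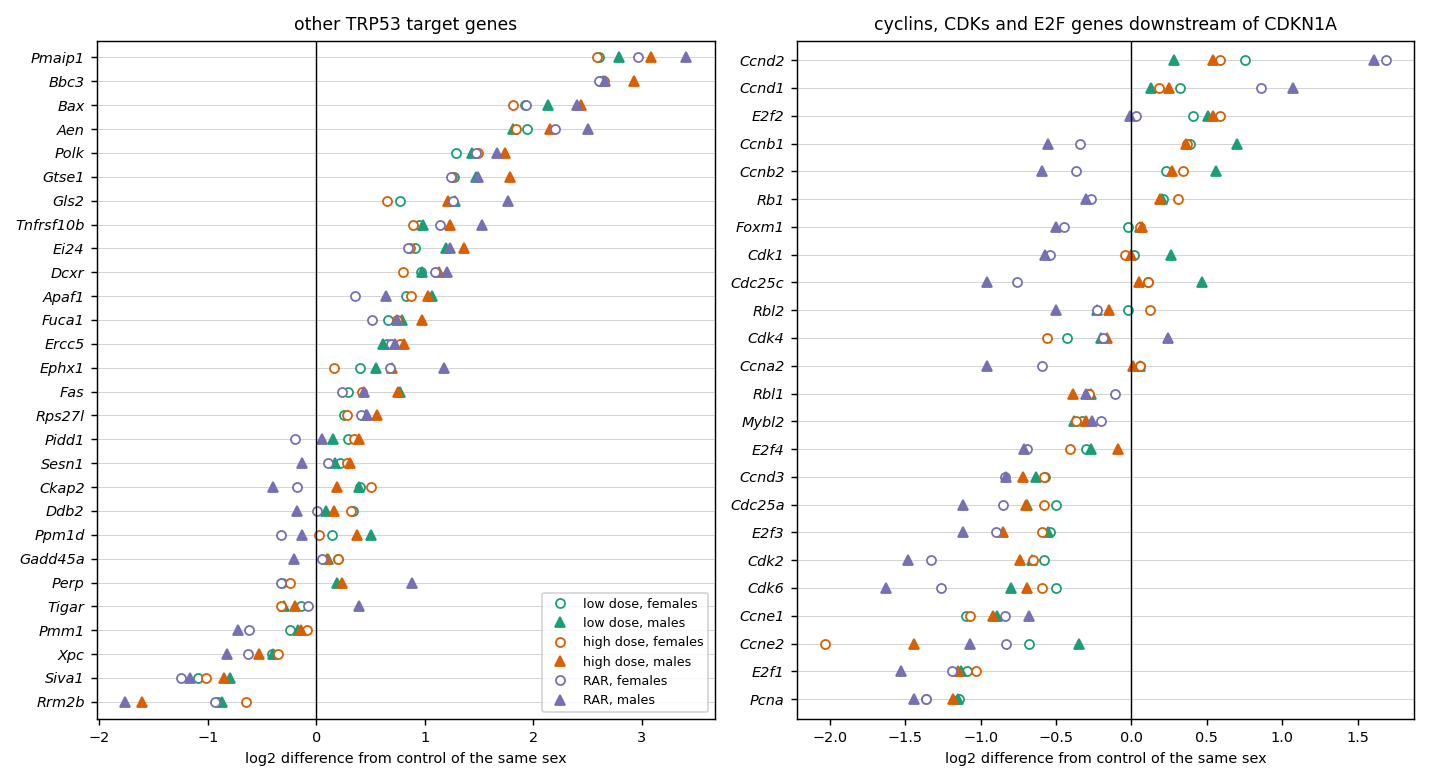
Each row is a gene and each point its log2 difference from controls of the same sex (colours for treatment, open circles for females, filled triangles for males), for other TRP53 targets on the left and genes downstream of CDKN1A on the right. *Pmaip1* and *Bbc3* lie farthest to the right on the left panel, and RAR points of *Cdk2* and *Cdk6* lie to the left of those of the single doses.

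Over the 8 group means, and among 10051 genes compared, the patterns most like that of *Cdkn1a* by Pearson's r were those of *Zfp365* (r = 0.998), *Lilrb4a* (0.998), *Rnase10* (0.997), *Tpsb2* (0.997) and *Snx20* (0.996), which all share the arrays and the reference RNA with it. The most alike, *Zfp365*, had group means of -2.59 and -2.65 in controls, from -0.99 to -0.53 at single doses, and -0.11 and 0.02 in RAR, in females and males. *Lilrb4a*, an inhibitory receptor of myeloid cells, had group means of -3.54 and -3.63 in controls, from -0.04 to 0.63 at single doses, and 1.76 and 2.19 in RAR, in females and males. *Tpsb2*, a tryptase gene of mast cells, was at 1.86 and 1.83 in controls, 3.82 to 4.37 at single doses, and 4.53 and 5.11 in RAR. Of the other 9 genes, *Mdm2* (r = 0.991) ranked 22, *Sesn2* (0.991) 27, *Phlda3* (0.974) 131, *Zmat3* (0.952) 460 and *Ccng1* (0.950) 497 in this order of likeness. *Trp53inp1* (0.592) ranked 2910, *Btg2* (0.526) 3094 and *Trp53* (-0.918) 8303, and *Plk2*, which was not well above background on all arrays, was not compared.

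Markers of other cells gave the following counts in RAR against control, females first and males second, beside 20.5% and 24.6% of all probes past the threshold in either direction. Of 12 myeloid markers 9 and 10 rose, of 8 mature T cell markers 4 and 5 rose, and of 11 double-positive thymocyte markers 2 rose and 3 fell and 4 rose and 1 fell. Of 8 B cell markers 1 rose and 4 fell in each sex, of 7 erythroid markers 2 rose and 1 fell and 2 rose, of 10 epithelial markers 2 rose and 3 fell and 2 rose and 2 fell, and of 10 stromal markers 3 rose and 2 fell and 3 rose and 1 fell. Of 9 adipocyte markers 3 rose and 1 fell and 4 rose and 2 fell, and of 12 proliferation markers 6 and 7 fell. The summed Cy5 signal of the proliferation markers, scaled to each array's own Cy5 as above, was 276 to 329 in female controls and 149 to 183 in female RAR. In males it was 238 to 305 and 133 to 142. The part of these cells in the values of *Cdkn1a* and the other genes was not tested.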

How the data were processed

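Thymocyte RNA (Cy5) and a common mouse reference RNA (Cy3) were hybridized to 24 Agilent 2-colour arrays without dye swaps. The authors deposited the scanner software's processed intensity of each spot, background-subtracted and dye-normalized within the array (Feature Extraction 11.5.1.1 per the file headers), and a table of log2 ratios, and 100% of the table agreed to 0.01 with ratios recomputed from those intensities. Spots at background carry a surrogate value from the software, so ratios of dim probes, such as *Plk2* in controls, are bounds. Outlier spots (183 to 368 per array) and control spots were left out, 0 spots were saturated, and spots of a probe were averaged, which gave 55681 probes; 0 columns were left unmatched to a sample. Probes were named through the transcript accession in the array files, annotated on an older build than the gene table (GRCm38.p6), which was used for names and promoter windows.

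All 8 groups were fitted as group means with limma 3.58.1 (R 4.3.3) without covariates, with Benjamini-Hochberg adjustment over all probes and a threshold of adjusted p under 0.05 and 1.5-fold, as in the methods. An F-test of 3 terms tested whether the treatments acted differently in the sexes (the interaction). Intervals cover 95%. Tables were made with Python 3.11.15, pandas 2.3.3 and matplotlib 3.10.9, and the fit was tested on simulated data. The alternatives are named below. Genes named from the lists were, per comparison, the 3 highest and 3 lowest past the threshold, with some chosen after their values were seen. The 10 genes and the gene lists were chosen with earlier results of these data known.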

Additional observations from a re-analysis of the deposited data

How the results depend on the processing

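The counts of the 10 genes past the threshold were within 1.5 times of those reported under most alternatives, which were normexp with loess, quantile normalization, the Cy5 channel alone, the deposited table, a filter on dim probes, removal of outlying values, the slide or the replicate number as a block, the mean of all probes of a gene, and each array left out in turn. With an absolute log2 change over 1.5 as the threshold, the counts against control were 5 for the high dose in females, 5 in males, 5 for the low dose in males and 5 for RAR in females, and 0 for RAR against the high dose in females and in males and 0 against the low dose in females and in males. RAR against the high dose in males had 2 genes with normexp and loess and 2 with the value farthest from its group left out, *Plk2* being the one added, and RAR against the low dose in males had 2 with the slide as a block. Leaving out the farthest value of each group, a step like one the paper's methods describe, narrows the spread by its construction. It also gave 1 gene for the high against the low dose in males (*Cdkn1a*) and 1 for male against female RAR (*Plk2*). For the interaction of sex and treatment it gave 9. Leaving out only values over 1 log2 unit away gave 2 for the interaction, *Cdkn1a* and *Phlda3*. The shares of all probes under these settings are not given here, so these counts have no background to be read against.

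Leaving out 1 array gave 1 to 2 genes for RAR against the high dose in females. The RAR difference of *Btg2* turned its sign, to -0.30 in females and -0.42 in males with the Cy5 channel alone, -0.33 in males with quantile normalization, -0.0367 with the farthest value left out, and -0.12 to 0.10 with 1 array left out; the Cy5 channel alone moved the median of all probes in RAR against control by 0.64 in females and 0.33 in males. The female RAR difference of *Trp53inp1* was -0.00691 with the slide as a block and ran from -0.0845 to 0.694 with 1 array left out. The cause was not tested in these cases.

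Arrays of the same replicate number did not deviate together (median r of -0.0388, against 0.0143 between numbers), so the number pairs no mice. With the replicate number as a block, the high dose had 7 of the 10 genes past the threshold in females and 7 in males, in place of 8 each, *Trp53inp1* being lost, and no other count changed. The 3 arrays of a group and, for *Plk2*, controls not above background limit what these data can resolve.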
